A study of Homo sapiens with 414 samples.

Results

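The nuclear genes of the respiratory chain were taken as every row of the expression tables whose symbol begins with the stems used for subunits of complexes I to V (NDUFA, NDUFB, NDUFC, NDUFS, NDUFV, NDUFAB1, SDHA to SDHD, UQCR, COX followed by a digit, and ATP5). This gave 99 of the 19097 human genes in the single-cell tables, and all 99 were rows of each of the 5 tables. By their known roles 85 of them are subunits or isoforms of subunits: 37 of complex I, 4 of complex II, 9 of complex III, 19 of complex IV and 16 of complex V. A further 9 are assembly factors of complex IV, and 5 carry such a symbol without being a subunit (the readthrough rows NDUFC2-KCTD14 and ATP5J2-PTCD1, COX4NB, ATP5S and ATP5SL). No expression value entered this choice.

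The samples were undifferentiated human embryonic stem cells of the established lines H1 and H9, grown in E8 medium on Matrigel, and the study used them to evaluate a normalization method for single-cell RNA-seq. There were 92 single H1 cells (passages 20 to 30) and 91 single H9 cells (passages 25 to 35), captured on a microfluidic device, with full-length cDNA. The cDNA of each cell was sequenced at 24 and again at 96 libraries per lane, so the depths are repeat runs of the same cells, and values are from 24 per lane unless the other is named. The 48 bulk H1 libraries (passage 16) were made from poly-A RNA with random primers. Each line is a single capture run, so line and run cannot be told apart, cells of a line are not replicates, and no test between lines or between cells and bulk is possible. Nothing in the labels says that the bulk libraries came from separate cultures, and their SD may be technical.

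The respiratory chain sits in the inner mitochondrial membrane. Complex I takes electrons from NADH and complex II from succinate, both hand them to ubiquinone, complex III passes them on to cytochrome c, and complex IV reduces oxygen. Complexes I, III and IV pump protons, and complex V, the ATP synthase, uses the gradient to make ATP. Most subunits are encoded in the nucleus and imported, while a core of complexes I, III, IV and V is encoded in mitochondrial DNA, and complex II is wholly nuclear. Human pluripotent stem cells rely largely on glycolysis for ATP, although their respiratory chain is present and active.

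Promoters of these genes are known for sites of NRF1, of ETS factors such as GABP, and of YY1. RefSeq (GRCh38.p14) gave a promoter for 80 of the 99 members, matched by current symbol or synonym. In the 250 bases before the annotated start, on either strand, GCGCATGCG (NRF1) lay in 11 of the 80 promoters (13.8%), against 2.05% of the 22199 promoters of protein-coding genes and 1.64% of all 35116 promoters of the table. The ETS motif CCGGAAG lay in 19 of the 80 (23.8%), against 10.7% of protein-coding and 8.52% of all promoters, and the YY1 motif AAGATGGCG lay in 1 of the 80 (1.25%), against 0.748% of protein-coding and 0.652% of all promoters. The NRF1 letters overlap their own reverse complement in GCGCATGCGC, and that longer run was counted as a single promoter with a match.

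The promoters below are shown because COX5A and UQCRFS1 differed most between the lines and SDHD was among the members that differed most between cells and bulk, while ATP5J is the member whose window holds all 3 motifs. Each is printed 5′ to 3′ on the gene's own strand up to the base before the annotated start, with capitals at motif matches. The window of COX5A, at chr15:74938074-74938323 on the minus strand, and that of UQCRFS1, at chr19:29213152-29213401 on the minus strand, hold none of these letters. The window of SDHD, at chr11:112086623-112086872 on the plus strand, holds an NRF1 run and an ETS match, and that of ATP5J, at chr21:25735055-25735304 on the minus strand, holds a match to each.
COX5A: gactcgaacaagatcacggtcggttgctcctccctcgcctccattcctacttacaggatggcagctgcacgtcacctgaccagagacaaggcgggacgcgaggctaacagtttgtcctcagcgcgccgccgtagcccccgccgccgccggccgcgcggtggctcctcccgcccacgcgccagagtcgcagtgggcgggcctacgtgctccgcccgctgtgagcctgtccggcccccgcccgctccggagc
UQCRFS1: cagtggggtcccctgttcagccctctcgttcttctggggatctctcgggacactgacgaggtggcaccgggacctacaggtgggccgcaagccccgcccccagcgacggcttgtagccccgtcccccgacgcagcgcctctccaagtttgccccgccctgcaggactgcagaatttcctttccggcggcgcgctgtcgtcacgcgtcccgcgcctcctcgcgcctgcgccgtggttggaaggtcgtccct
SDHD: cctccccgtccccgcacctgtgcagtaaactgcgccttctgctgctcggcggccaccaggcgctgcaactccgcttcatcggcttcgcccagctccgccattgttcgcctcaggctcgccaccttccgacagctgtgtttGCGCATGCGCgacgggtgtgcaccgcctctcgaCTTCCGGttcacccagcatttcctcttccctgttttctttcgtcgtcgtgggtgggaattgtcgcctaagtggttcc
ATP5J: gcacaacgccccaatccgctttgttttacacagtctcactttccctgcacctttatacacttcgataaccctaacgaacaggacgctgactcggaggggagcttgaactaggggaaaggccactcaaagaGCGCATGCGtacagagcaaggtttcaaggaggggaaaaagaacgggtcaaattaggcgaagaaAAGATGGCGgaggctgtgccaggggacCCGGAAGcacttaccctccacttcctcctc

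Totals of human counts ran from 1136295 to 8096756 per H1 cell and from 1568326 to 7758948 per H9 cell, and from 2099639 to 3964675 per bulk library. At 96 per lane the medians were 852336 in H1 cells and 953327 in H9 cells. Some libraries stood apart: 5 H1 and 2 H9 cells had unusual shares (spike-ins over 10% of counts, or mitochondrial counts outside 1% to 20%), 4 H9 cells resembled one another (correlations of up to 0.88), and 1 bulk library was the farthest from the rest. Each of the 4 had at least 1 pair correlation above 0.75. The lowest correlation among the 4 was 0.69, and pairs of other H9 cells reached 0.70. Results are given with and without the libraries that stood apart where they matter. The 7 pluripotency markers summed to 4494 CPM in H1 cells, 3691 CPM in H9 cells and 9107 CPM in bulk. The 6 fibroblast markers summed to 212 CPM in H1 cells, 230 CPM in H9 cells and 406 CPM in bulk, with THY1, known also from the surface of stem cells, the highest in each, and COL3A1, DCN and LUM under 1 CPM in all. Here CPM are counts per 1000000 counts of the nuclear genes shared by all tables (nuclear CPM), a scale on which cells and bulk can be set side by side.

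Both lines expressed the usual subunits at 10 CPM or more, with the exception of ATP5D. Of the 99 members, 90 reached 10 CPM in at least 1 line, counted per 1000000 human counts, and 9 did not. Scaled to transcript length, so that genes can be compared, the highest member of complex V was ATP5B, the catalytic beta subunit, with a length-scaled level of 1774 per 1000000 in H1 cells and 1841 in H9 cells. COX7C led complex IV with 992 in H1 and 1017 in H9, NDUFS5 led complex I with 939 and 913, SDHD, a membrane anchor, led complex II with 809 and 762, and UQCRH, the hinge protein, led complex III with 707 in H1 and 708 in H9. The order of the members was close to the same in the lines, with a Spearman correlation of 0.99 across the 90 members, which share libraries within a line and are not replicates. Lengths are medians over annotated transcripts, so these levels are approximate.

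The 9 members below 10 CPM were mostly tissue-restricted forms. COX8C, a testis form, had 0 counts in both lines, where 3 counts would be 0.00862 CPM in H1 and 0.00841 CPM in H9. The hypoxia-related NDUFA4L2 and COX4I2 had 4 counts each over all H1 cells and 0 in H9, and COX7B2, another testis form, had 10 counts in H1 and 0 in H9. The muscle forms COX6A2 (23 counts in H1, 25 in H9) and COX7A1 (22 counts in H1, 6 in H9) were barely read. UQCRHL and ATP5L2, near copies of UQCRH and ATP5L, took 0.390% and 1.23% of their pair's counts in H1 cells, and 0.397% and 1.13% in H9 cells. ATP5D, the delta subunit of the F1 part, is no tissue form, yet it was at 3.32 CPM in H1, 2.97 CPM in H9 and 6.71 ± 1.68 nuclear CPM in bulk (SD, n = 48).

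H1 cells had slightly less of most members than H9 cells. Of the 90 members compared, 70 were lower in H1, or 77.8%, where 47.9% of the 8851 genes at this level were lower in H1. At 96 per lane 61 of the 90 were lower in H1, where 47.7% of all genes were. Without both the cells of unusual share and the H9 cells that resemble one another, 56 were, where 46.7% of all genes were. The median log2 ratio of H1 over H9 was -0.11 for the members and 0.02 for all genes. Sums of counts carry little counting error (the widest 95% Poisson interval of a compared member, that of COX6B2, was 3.52% to a side). Counting error leaves out the spread between cells and any difference between runs. The 85 subunits and isoforms together made 12485 CPM in H1 and 13582 CPM in H9, so H9 had 1.09-fold as much.

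The shift was small, and it showed in the sums of complexes I, III, IV and V but not of complex II. Complex I had a median log2 ratio of -0.15 with 29 of 37 members lower in H1, and its 7 catalytic core subunits were all lower, with a median of -0.28. Complex III had a median of -0.20 with 8 of 8 lower, complex IV -0.15 with 12 of 13 lower, and complex V -0.08 with 14 of 14 lower. Complex II made 549.3 CPM in H1 and 547.8 CPM in H9, with a median of -0.13 over 4 genes, 2 on each side: SDHA, the flavoprotein, had 81.1 CPM in H1 and 111 CPM in H9, while SDHB, its iron-sulphur partner, had 100 CPM in H1 and 87.3 CPM in H9. The 9 complex IV assembly factors did not share the shift, with a median of 0.03 and 4 of 9 lower in H1.

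**Figure D1:**
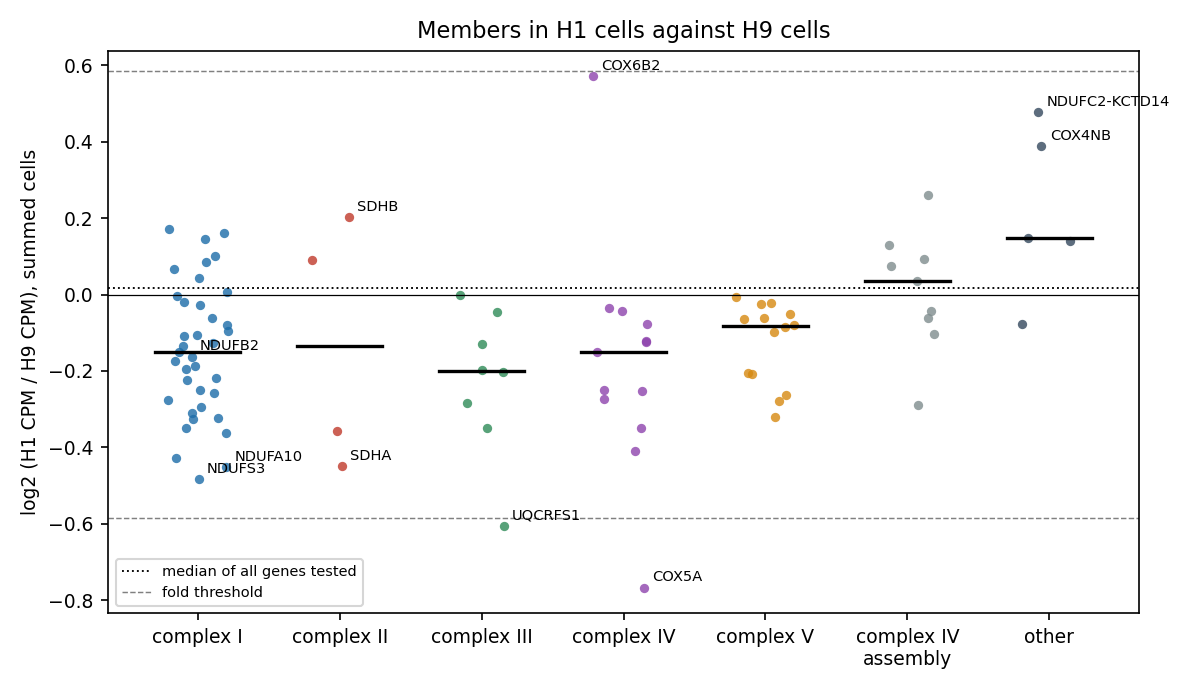
Log2 ratio of H1 over H9 for each of the 90 members at 10 CPM or more, summed over 92 H1 and 91 H9 cells, grouped by complex. Bars are group medians, the dotted line the median of all genes (0.02) and dashed lines 1.5-fold; COX5A and UQCRFS1 lie below the lower dashed line and no member above the upper.

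Only COX5A and UQCRFS1 were at least 1.5-fold lower in H1, 2 of 90 members, where 7.83% of all genes were that much lower. No member was at least 1.5-fold higher in H1, where 6.65% of all genes were. COX5A, a nuclear subunit of the cytochrome c oxidase matrix face, had 65.6 CPM in H1 (95% Poisson interval 64.8 to 66.5), against 112 CPM in H9 (111 to 113), and the log2 ratio was -0.77. In single cells it ran from 0.190 over a median of 60.5 to 239 CPM in H1, and from 28.97 over a median of 98.1 to 291.5 CPM in H9, so the lines overlapped widely. UQCRFS1, the Rieske iron-sulphur protein of complex III, had 75.2 CPM in H1, against 114 CPM in H9, and the log2 ratio was -0.61. Its cells ran from 0.163 over a median of 76.5 to 209 CPM in H1, and from 11.6 over 100.9 to 332 CPM in H9. Without the cells of unusual share its log2 ratio was -0.50, and without the H9 cells that resemble one another it was also under 1.5-fold, while COX5A stayed past it in both cases.

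Next on the low side in H1 came NDUFS3, a core subunit near the quinone site, with 59.9 CPM in H1 and 83.8 CPM in H9, NDUFA10, an accessory subunit, with 82.7 CPM in H1 and 113 CPM in H9, and SDHA. On the high side were COX6B2, the testis form of subunit 6b, with 13.3 CPM in H1 and 8.95 CPM in H9 (log2 ratio 0.57; it reached 10 CPM only in H1), the readthrough row NDUFC2-KCTD14 with 74.1 CPM in H1 and 53.2 CPM in H9, and COX4NB, a gene next to COX4I1 whose product belongs to the endoplasmic reticulum, with 18.4 CPM in H1 and 14.03 CPM in H9. COX20, a chaperone of the mitochondrially encoded subunit 2, had 134 CPM in H1 and 112 CPM in H9. NDUFB2, a membrane-arm subunit of complex I, was close in the lines, with 84.6 CPM in H1 and 94.7 CPM in H9 (log2 ratio -0.16).

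The number that each cell carries in its label tracked part of this. COX5A was high in cells with low numbers and low in the middle of the series, in both lines. In H1 its median was 112 nuclear CPM over the 23 cells numbered 1 to 24, 57.7 over the 53 cells numbered 25 to 80 and 65.99 over the 16 cells numbered 81 to 96. In H9 the medians over the same numbers were 225, 70.9 and 136 nuclear CPM, over 22, 53 and 16 cells. With the numbers cut into 12 blocks of 8, the blocks took 35.2% of the variance of COX5A between H1 cells and 60.9% between H9 cells, where 12.1% in H1 and 12.2% in H9 would fall to blocks by their number alone. What the number stands for is not given in the labels beyond naming the cell.

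COX7C was the other member to reach 30% in both lines, with 32.5% in H1 and 42.3% in H9. These are 2 of 89 members, where 0.389% of 7970 genes reached that level in both. Over the members the median share was 14.03% in H1 and 19.5% in H9, and over all genes it was 12.6% in H1 and 13.2% in H9. The profile of a gene over the 12 blocks in H1 and its profile in H9 had a median Pearson correlation of 0.30 over the members. Over all genes this median was 0.07. The cells and libraries of the 2 lines are different, and what underlies the likeness of their profiles was not tested.

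**Figure D2:**
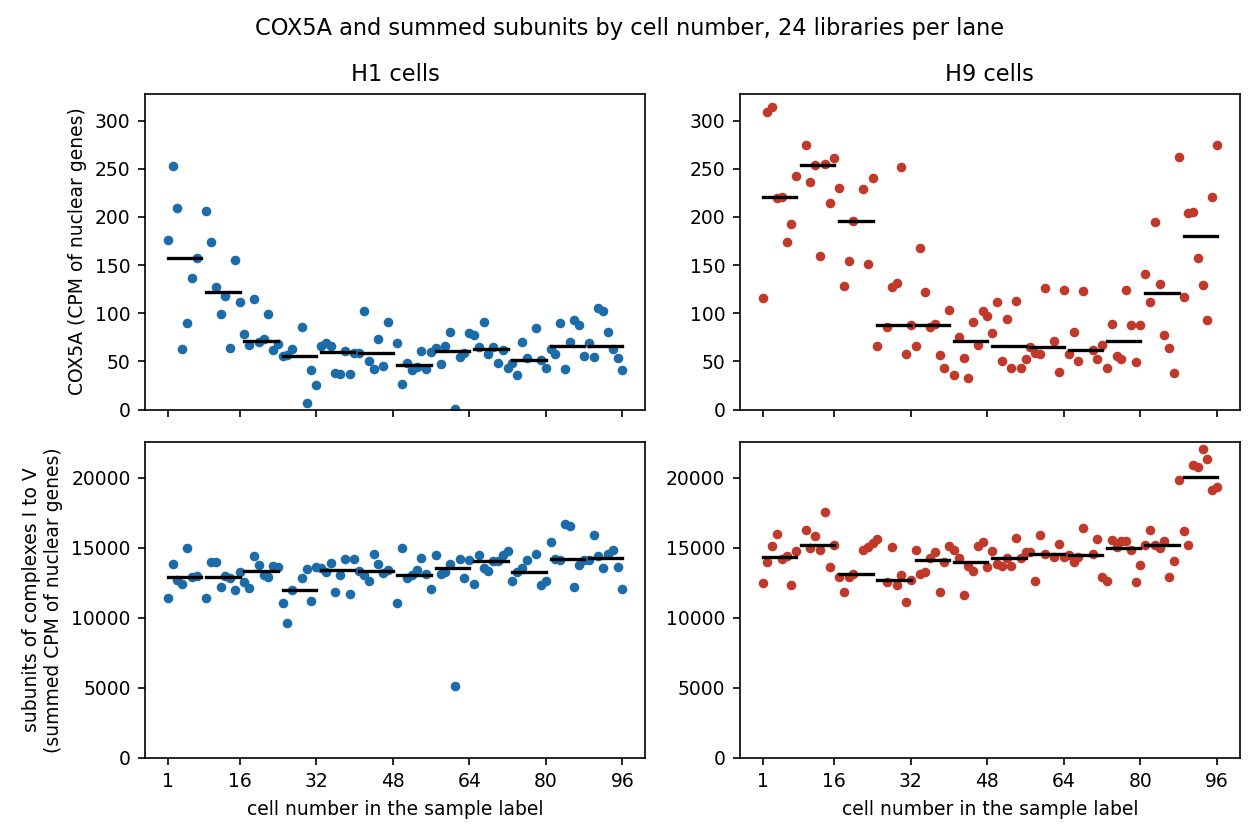
COX5A (top) and the summed subunits of complexes I to V (bottom) in nuclear CPM against the cell number in the label, for H1 cells (left) and H9 cells (right); each point is a cell and each bar the median of a block of 8 numbers. COX5A is highest at low numbers in both lines, and the H9 cells of the last block have a summed median of 20068, against 14490 in the other H9 cells.

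In H9 the last block had higher medians over the genes of complexes I, III, IV and V, with little difference in the median for complex II. The 8 H9 cells numbered 89 to 96, a range chosen after the values were seen, had a median of 20068 nuclear CPM for the summed subunits, against 14490 in the other 83 H9 cells, a 1.38-fold difference. The 7 highest H9 cells by this sum were those numbered 88 and 91 to 96. In H1 cells with the same numbers the sum was 14275, against 13302 in the other H1 cells (1.07-fold). In H9, 53 of 90 members were at least 1.5-fold higher in cells 89 to 96 by medians, where 24.7% of 8481 genes were. Medians by complex put complex IV at a log2 difference of 0.88, complex III at 0.85, complex I at 0.73, complex V at 0.70 and complex II at 0.07. Within complex II, SDHC had a median of 19.04 CPM (0.477 to 43.1) in cells 89 to 96. In the other H9 cells it was 4.57 CPM (0 to 137). Its log2 difference of 2.06 was the largest of the 90 members, while SDHA (0.11), SDHD (0.04) and SDHB (-0.05) differed little.

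Single members showed the size of this. NDUFB1, a membrane-arm subunit, had a median of 88.2 CPM (21.5 to 151) in H9 cells 89 to 96 and 28.5 CPM (10.7 to 62.3) in the other H9 cells. UQCRQ, an accessory subunit of complex III, had 215 CPM (63.3 to 297) in cells 89 to 96 and 81.4 CPM (30.6 to 255.9) in the others. ATP5J, coupling factor 6, had 348 CPM (161 to 646) in cells 89 to 96 and 151 CPM (35.5 to 301) in the others. COX10, which acts in making haem A for complex IV, was lower, with 4.88 CPM (0 to 38.6) in cells 89 to 96 and 30.9 CPM (0 to 221) in the others. Other short genes were 1.32-fold and ribosomal protein genes 1.64-fold higher in these H9 cells, and 3 of the 4 H9 cells that resemble one another are among them. Their totals had a median of 2981030 counts, against 3937220 in the other H9 cells, and the part of these values in the result was not tested.

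Leaving out cells numbered 89 to 96 moved the comparison of the lines. Without them in both lines the members' median log2 ratio was -0.06, and it was 0.02 over all genes. Of the 90 members, 59 were lower in H1, where 47.5% of 8875 genes were. COX5A kept a log2 ratio of -0.71 and UQCRFS1 -0.59, so both stayed at least 1.5-fold lower in H1. Within the 12 blocks the members' median ran from -0.58 in the last to 0.06 in the block of cells 65 to 72, and it was below 0 in 11 of 12. The median of all genes was below 0 in 4 of 12. COX5A was lower in H1 in 12 of 12 blocks, with log2 ratios from -1.35 to -0.0041, and UQCRFS1 in 10 of 12. Both were picked as lowest in H1 over these same cells, and the blocks are parts of a single run per line. Their block counts are thus no separate support. SDHB, the marker higher in H1, was lower there in 5 of 12 blocks, and NDUFB2 in 7 of 12. In cells numbered 25 to 80 alone COX5A, at -0.56, and UQCRFS1, at -0.50, were both short of 1.5-fold, and the members past it were NDUFA10 at -0.60 and COX6B2 at 0.60.

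The 3 members on the X chromosome, NDUFA1, NDUFB11 and COX7B, were all lower in H1, with log2 ratios of -0.31, -0.13 and -0.25. Their median of -0.25 lay close to the median of -0.23 over the 341 X-linked genes at this level. The mitochondrially encoded partners moved the same way and further. All 13 mitochondrially encoded protein genes were lower in H1, with a median log2 ratio of -0.36, a summed 60549 CPM in H1 and 74992 CPM in H9. MT-ND1, a complex I subunit, had 2466 CPM in H1 and 3627 CPM in H9, and MT-CO3, a complex IV subunit, 5730 CPM in H1 and 8383 CPM in H9. With them out of the totals the median of the nuclear members was -0.13.

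Among genes that act with the chain, carriers and other subunits outside the symbol rule (15 genes) had a median log2 ratio of -0.14 with 11 of 15 lower in H1 and none at 1.5-fold. VDAC3, an outer-membrane channel, with 247 CPM in H1 and 319 CPM in H9, and SLC25A4, an ADP/ATP carrier, with 83.2 CPM in H1 and 103 CPM in H9, were lowest, and ATPIF1, an inhibitor of the ATP synthase, with 197 CPM in H1 and 182 CPM in H9, was highest. Enzymes of the tricarboxylic acid cycle had a median of -0.13 with 11 of 17 lower and none at 1.5-fold. Assembly factors had a median of -0.02 with 12 of 23 lower. Of the 23, 2 were at least 1.5-fold lower in H1, where 7.83% of all genes were. They were TMEM70 for complex V (22.5 CPM in H1, 36.7 CPM in H9) and NDUFAF3 for complex I (12.8 CPM in H1, 19.5 CPM in H9). Regulators of mitochondrial genes had a median of -0.01 over 10. POLG, the mitochondrial DNA polymerase, had 5.92 CPM in H1 and 13.9 CPM in H9, and TFB1M, a mitochondrial rRNA methyltransferase, had 67.1 CPM in H1 and 34.9 CPM in H9.

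Against bulk RNA of the same line, single H1 cells gave about 2-fold as much of the chain per nuclear count. Of 90 members compared, 76 were higher in cells than in bulk, where 56.5% of 9647 genes were, and 54 were at least 2-fold higher, where 30.1% of all genes were. Of the 90 members, 8 reached 10 CPM only in cells, and so had to be higher there, and none only in bulk. Taking instead the genes whose mean over cells and bulk was 10 CPM or more, a choice made after seeing the data, 53 of 89 members were at least 2-fold higher, where 28.2% of 8805 genes were. Only SDHC was at least 2-fold lower in cells, 1 of 90, where 21.5% of all genes were. The median log2 ratio of cells over bulk was 1.17 for the members and 0.24 for all genes. Summed subunits made 13289 nuclear CPM in the summed H1 cells and 6365 ± 310 in bulk (SD, n = 48), 2.09-fold apart. Single H1 cells ran from 5099 over a median of 13397 to 16677 nuclear CPM, and bulk libraries from 5749 over 6356 to 6946, so that all but the lowest of the H1 cells lay above the bulk range. Fewer cells of a type and less RNA per cell cannot be told apart in bulk.

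The excess over bulk held in every complex. Complex IV had a median log2 ratio of 1.71 with 11 of 13 members higher in cells (1.45 without COX6B2), complex II 1.53 with 3 of 4, complex V 1.46 with 14 of 14, complex I 1.17 with 29 of 37 and complex III 0.97 with 7 of 8. Complex V made 5481 nuclear CPM in cells and 2257 ± 127 in bulk (SD, n = 48), and complex I made 3799 in cells and 2280 ± 142 in bulk (SD, n = 48). The assembly factors of complex IV were all higher in cells, with a median of 0.97. Assembly factors of all complexes in a wider list had a median of 0.46 with 17 of 25 higher in cells.

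**Figure D3:**
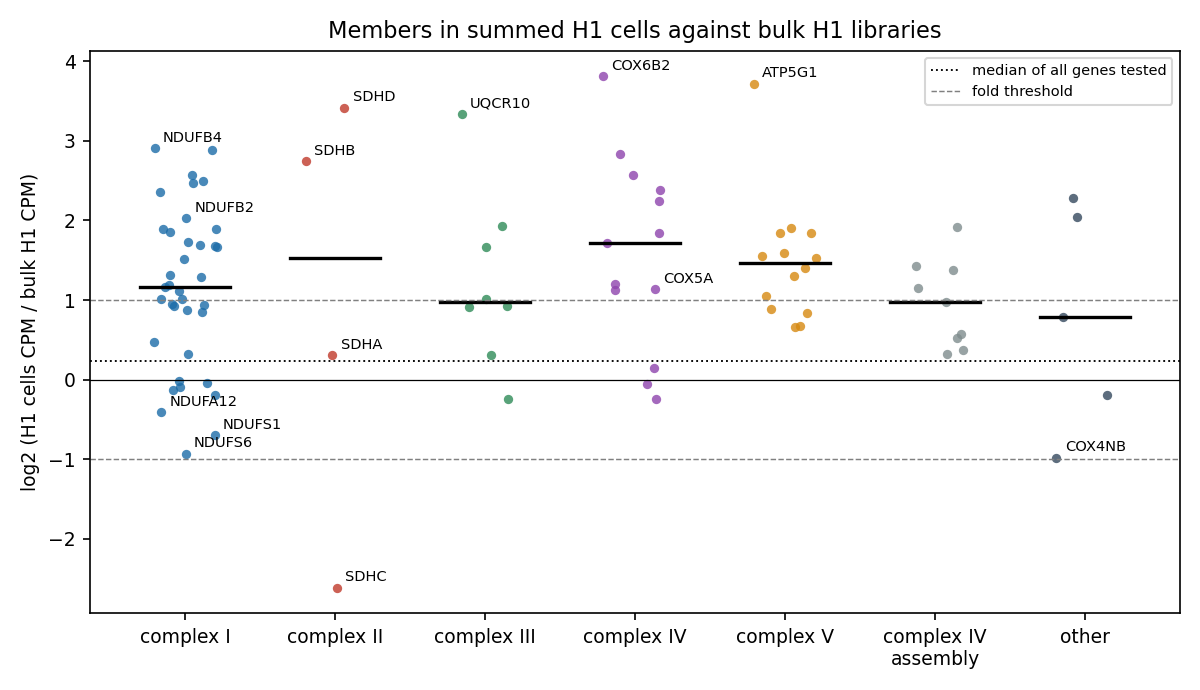
Log2 ratio of the summed H1 cells over the mean of 48 bulk H1 libraries for each of 90 members, in nuclear CPM and grouped by complex. Bars are group medians, the dotted line the median of all genes (0.24) and dashed lines 2-fold; all complexes have medians above the dotted line, and SDHC lies alone below -2.

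Of the 5 largest excesses in cells, the first 2 belong to members that reached 10 CPM only in cells. COX6B2 had 14.2 nuclear CPM in cells and 1.01 ± 0.70 in bulk (log2 ratio 3.81), and ATP5G1, the first of 3 genes for subunit c of the ATP synthase ring, had 79.1 in cells and 6.01 ± 1.54 in bulk (3.72). SDHD had 378 in cells and 35.4 ± 3.73 in bulk (3.42), UQCR10, an accessory subunit of complex III, 121 in cells and 11.97 ± 2.29 in bulk (3.33), and NDUFB4, a membrane-arm subunit, 151 in cells and 20.1 ± 3.88 in bulk (2.90; SD over 48 libraries for each). Of the markers, SDHB had 107 nuclear CPM in cells and 15.9 ± 2.94 in bulk, NDUFB2 90.1 in cells and 22.01 ± 3.17 in bulk, and COX5A 69.9 in cells and 31.7 ± 3.95 in bulk.

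On the low side, SDHC had 13.3 nuclear CPM in cells and 81.5 ± 7.19 in bulk, 6.11-fold more in bulk (log2 ratio -2.61). COX4NB followed at -0.98 and then NDUFS6, an accessory subunit of complex I near its NADH module, with 56.6 in cells and 108 ± 19.5 in bulk (-0.93). NDUFS1, the largest core subunit of complex I, had 117 in cells and 189 ± 8.47 in bulk (-0.70), and NDUFA12 had 108 in cells and 143 ± 23.05 in bulk (-0.41; SD, n = 48 for each). Neither transcript length (Spearman correlation 0.02 over 90 members) nor transcript GC content (0.11) ordered the members' ratios, while over all genes these were -0.21 and -0.29. By median length the members are much shorter than all genes, and they were not compared with other genes of like length. The part of length in their excess over bulk was not tested.

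Complex II shows how the order of subunits differed between cells and bulk. By length-scaled level per 1000000, SDHA had 75.5 in H1 cells and 66.3 in bulk, SDHB 171 in cells and 27.8 in bulk, SDHC 53.4 in cells and 356 in bulk, and SDHD 809 in cells and 82.6 in bulk. SDHD was thus the highest of the 4 in cells and SDHC the lowest, while SDHC was the highest in bulk and SDHB the lowest. H9 cells had the same order as H1 cells, with 103 for SDHA, 149 for SDHB, 68.5 for SDHC and 762 for SDHD. In single H1 cells SDHC ran from 0 over a median of 7.09 to 72.2 CPM, and it was read in 89 of 92 cells. In bulk it ran from 68.3 over 81.2 to 96.9 nuclear CPM, and no bulk library was as low as the median cell. Over all 90 members the Spearman correlation of the length-scaled levels in H1 cells and bulk was 0.73, and by complex it was 0.79 in V, 0.70 in I, 0.62 in III and 0.47 in IV.

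**Figure D4:**
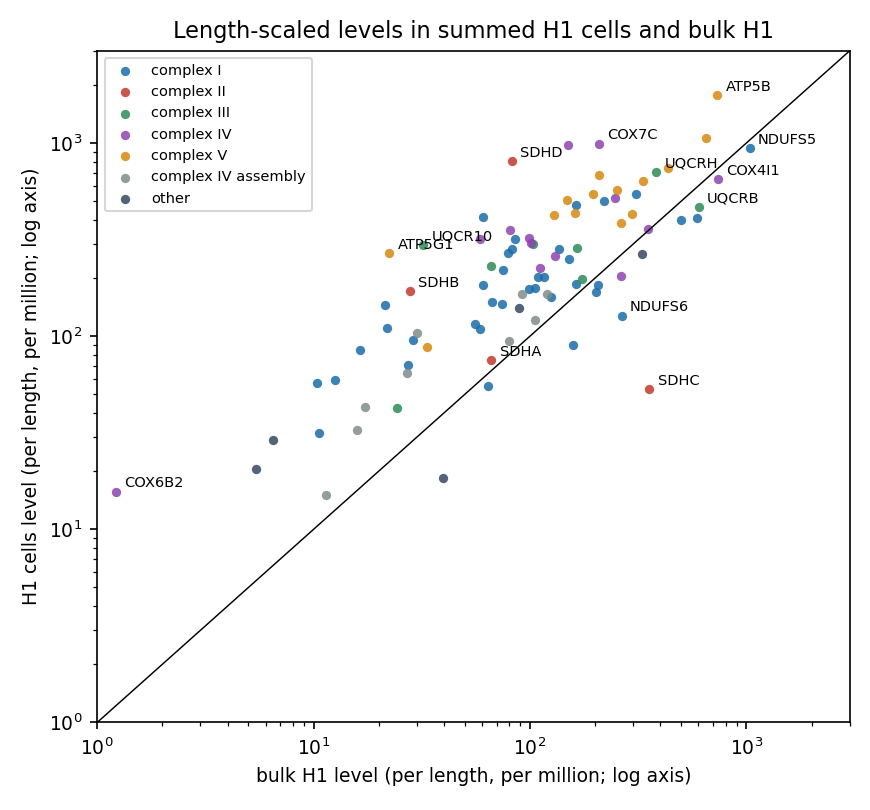
Length-scaled level of each of 90 members in summed H1 cells (vertical, log axis) against bulk H1 (horizontal, log axis), per 1000000 and colored by complex, with the line of equal levels. Most members lie above the line, and the 4 genes of complex II lie on both sides of it, with SDHD at 809 in cells and SDHC at 53.4.

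Paralogous genes and shared rows split differently in cells and bulk. Of the 3 genes for subunit c, which encode the same mature protein, ATP5G1 made 13.4% of their summed CPM in H1 cells, 13.8% in H9 cells and 2.92% in bulk. ATP5G3 made 48.9% in H1 cells, 52.03% in H9 cells and 68.05% in bulk. COX6B2 made 11.5% of the COX6B1 and COX6B2 sum in H1 cells, 7.46% in H9 cells and 4.21% in bulk. The readthrough row NDUFC2-KCTD14 took 34.2% of the sum with NDUFC2 in H1 cells, 24.6% in H9 cells and 59.8% in bulk, and in 17 of 92 H1 and 28 of 91 H9 cells it took under 5%. Estimated counts divide reads between rows that share sequence, so single values of these rows, and of other members with processed pseudogenes, are uncertain, while NDUFC2 and its readthrough summed to 231 nuclear CPM in H1 cells, 234 in H9 cells and 151 in bulk.

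The common forms far exceeded their tissue-restricted relatives: COX4I1 had 261.8 CPM in H1 and 348 CPM in H9, COX6A1 285.3 in H1 and 293.7 in H9, COX7A2 127 in H1 and 134 in H9, COX8A 67.5 in H1 and 86.1 in H9, and NDUFA4, once placed in complex I and now in complex IV, 329 in H1 and 391.6 in H9. COX7A2L, a relative with a role in supercomplex assembly, had 116 CPM in H1 and 140 CPM in H9.

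Within bulk the summed subunits moved with depth, and several markers differed between cells and bulk. The summed subunits correlated with total count across the 48 bulk libraries (Spearman 0.70, given as a description) and with genes read (0.77). The pluripotency markers PODXL (283.7 nuclear CPM in cells, 2083 ± 116 in bulk) and POU5F1 (177 in cells, 1173 ± 99.4 in bulk) were lower in cells, as were 5 of the 7 listed, 4 of them at least 2-fold. NANOG (228.6 in cells, 109 ± 13.5 in bulk) and TDGF1 (2255 in cells, 1763 ± 111 in bulk) were higher in cells. Fibroblast markers summed to 58.02 to 694 nuclear CPM in single H1 cells and 366 to 483 in bulk libraries. COL1A1 had 6.03 in cells and 132 ± 8.78 in bulk, COL1A2 had 30.5 in cells and 105 ± 6.57 in bulk, THY1 had 176 in cells and 169 ± 13.4 in bulk, COL3A1 and DCN were at 0 in H1 cells and under 1 in bulk, and LUM was at 0 in both. Library chemistry, passage and form of sample all differ between cells and bulk and cannot be told apart, and the part of the markers was not tested.

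Members varied less between cells than other genes of like level did. Spread was measured per gene as the squared coefficient of variation of its CPM and divided by the median for genes of similar mean; the log2 of this is called excess spread. In H1 the members' median was -1.58, and 82 of 90 lay below 0, where 49.4% of 8412 genes did. For 62 of 90 the excess was -1 or lower, where this held for 16.6% of all genes. In H9 the median was -1.07, with 82 of 89 below 0 (49.6% of all genes) and 48 at -1 or lower (13.4% of all genes). Without cells numbered 89 to 96 the median was -1.55 in H1 and -1.57 in H9. Members ordered alike in the lines (Spearman correlation 0.78, n = 89).

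The steadiest members were genes of short transcripts. NDUFB1 had an excess of -3.45 in H1, with cells from 10.1 over a median of 35.1 to 63.9 CPM, followed by NDUFA3 at -3.35 and COX17, a copper chaperone for complex IV, at -3.13. In H9 the lowest were COX17 at -2.37, NDUFC1 at -2.26 and NDUFA7 at -2.23, and NDUFB1 stood at -1.36. The markers NDUFB2 (-2.45 in H1, -1.93 in H9), COX5A (-0.90 in H1, -0.36 in H9) and SDHB (-0.48 in H1, -0.79 in H9) were all below 0.

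The most variable members mostly had longer transcripts. COX15, which acts with COX10 in haem A synthesis, led in H1 with 0.69 and cells from 3.97 over a median of 120 to 568 CPM, and SDHA at 0.34, NDUFS1 at 0.29 and COX20 at 0.28 were also above 0. In H9 NDUFS1 led with 0.64 and cells from 1.98 over 115 to 577 CPM, and NDUFC2-KCTD14 at 0.32, COX20 at 0.23 and COX15 at 0.04 were also above 0. By complex the medians were -2.09 for IV, -1.81 for I, -1.47 for V, -1.41 for III and -0.28 for II in H1, and -1.15 for IV, -1.36 for I, -1.14 for V, -0.93 for III and -0.34 for II in H9.

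**Figure D5:**
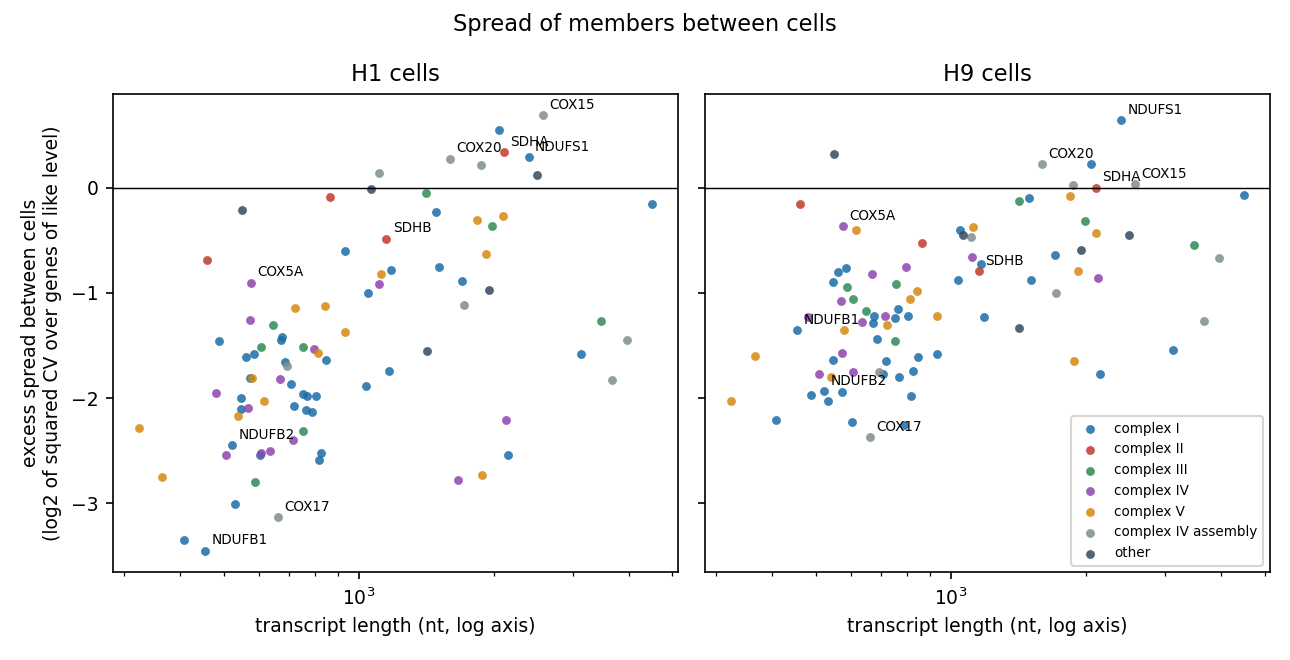
Excess spread between cells against transcript length (log axis, nucleotides) for members at 10 CPM or more, in H1 cells (left, 90 members) and H9 cells (right, 89 members), colored by complex; 0 is the level of genes of like mean. Short members lie lowest, and NDUFS1, COX15 and COX20 lie above 0 in both lines.

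Transcript length moved with spread. Over the members the Spearman correlation of excess spread with length was 0.53 in H1 and 0.51 in H9, and over all genes 0.37 in H1 and 0.35 in H9. The members are short, with a median of 798 nucleotides, against 2637 for all genes at this level. Lengths were not matched within the classes that follow, and the part of length in the members' spread was not tested. Below 1000 nucleotides the median excess was -1.95 for 54 members and -1.06 for 671 other genes in H1, and -1.33 for 54 members and -0.84 for 695 others in H9. At 1000 nucleotides and above it was -0.77 for 36 members and 0.06 for 7594 others in H1, and -0.54 for 35 members and 0.05 for 7640 others in H9.

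The summed level of the chain varied less from cell to cell than that of any single complex in H1. The summed subunits had a coefficient of variation of 10.9% over 92 H1 cells, 13.9% over 91 H9 cells and 4.87% over 48 bulk libraries. Without the cells of unusual share, and in H9 those that resemble one another, it was 8.10% in H1 and 12.2% in H9. Complex II, with the fewest genes, varied most, at 30.4% in both lines, against 12.4% for complex I, 14.3% for IV, 14.6% for V and 16.9% for III in H1, and 13.4% for complex V, 17.97% for I, 20.5% for III and 24.7% for IV in H9. Members were read almost everywhere: 82 of 90 members at 10 CPM were read in every H1 cell, where 60.2% of genes at that level were, and 83 of 89 in every H9 cell, where 53.5% were. SDHC was read in 84 of 91 H9 cells and COX10 in 83 of 91. The lowest reading for a row with no shared transcript in H1 was SDHC, in 89 of 92.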

How the data were processed

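The authors deposited RSEM expected counts per gene (estimated counts that need not be whole), 1 table per group of libraries. Per the submitters' processing notes the tools were CASAVA 1.8.2, Bowtie 0.12.8 and RSEM 1.2.3 on hg19, with 51-base single-end reads per the labels' protocols; the annotation is not given in the sources used here. All columns were matched to sample titles, and 92 spike-in rows were left out of the totals.

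Counts were summed over the cells of a line and divided by the human total (CPM). For cells against bulk, and by cell number, only nuclear genes shared by the tables counted, since the bulk table (19084 genes) holds no mitochondrially encoded gene. With 1 sample per line, ratios were read by size (1.5-fold between lines, 2-fold against bulk) for genes that reached 10 CPM in 1 of the groups, with exact Poisson 95% intervals that cover counting error only. A gene was read in a cell at a rounded count of at least 1. Transcript lengths are medians over GENCODE release 29 basic transcripts. Ratio and spread code was tested on simulated data. The members, complexes, gene lists and rule for naming genes (markers, the 5 largest ratios each way, 5 largest and 3 smallest spreads, highest member per complex, X-linked and paralogous members) were chosen with earlier results of these data known. The values of 1 member are not reported here. Tools were Python 3.11.15, pandas 2.3.3, scipy 1.17.1, R 4.3.3 and edgeR 4.0.16, the last for TMM factors only.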

Additional observations from a re-analysis of the deposited data

How the results depend on the processing

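Under the alternatives, 180 of 197 summary values stayed within the limits set for them, and no median reversed direction. A count has no direction to reverse, and its limit was 1.5 times. For a median log2 ratio the limits were an interval taken from the members' own ratios. For the 4 genes of complex II that interval was their full range, -0.45 to 0.20 between lines and -2.61 to 3.42 against bulk. The medians of complex II could hardly leave it, so their staying within it says little. Alternatives that leave out libraries by share, likeness or number, or keep genes by the mean of both groups, were chosen after seeing the data. The members' median log2 ratio of H1 over H9 was -0.034 without both the cells of unusual share and the H9 cells that resemble one another (complex V -0.025) and -0.062 without cells numbered 89 to 96. The count at least 1.5-fold lower in H1 was 1 with the mean of per-cell CPM, without the 10% of cells with the fewest genes, without cells of unusual share, without the H9 cells that resemble one another, and without both, each time COX5A, and 1 in cells 25 to 80 alone, there NDUFA10; the count 1.5-fold higher was 1 at 96 per lane and in cells 25 to 80, both times COX6B2. The count 2-fold lower in cells than bulk was 2 at 96 per lane and by mean CPM (SDHC and COX4NB), and 3 with TMM or median-of-ratios factors (also NDUFS6). Those factors moved the median of all genes against bulk to 0.07 and 0.06. Of 90 members, 46 and 45 were then 2-fold higher, where 26.1% and 25.8% of 9647 genes were. Such a factor moves every gene alike, so the members' distance of 0.94 from that median is fixed by construction. The median excess spread in H9 was -1.29 without the cells that resemble one another and -1.57 without cells 89 to 96. The causes were not tested. No paired analysis was possible because each line is 1 sample and the results come from no test. Per-cell values of rows with few counts are limited by depth: 63 members were read in every H1 cell at 96 per lane and 82 at 24.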
